A study of Dendrobium catenatum with 16 samples.

Results

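The AP2/ERF transcription factors of Dendrobium catenatum, a medicinal orchid, were followed across 16 RNA sequencing libraries from cultured plantlets. A gene was counted as a member when the transcription factor family given for it in the second deposited count table contained ERF, EREB or AP2. This rule found 110 of 28537 features, and all 110 were also listed in the first table, which held 23063 features. Another 3 genes have an AP2 domain in their description but a different family entry and were left out: LOC110105539, named dehydration-responsive element-binding protein 2A, and LOC110102213 and LOC110110072, which carry a B3 domain as RAV proteins do. The first experiment had 2-month-old plantlets kept for 3 weeks on medium that held water as the control, NAA (0.1 mg/L), 6-BA (1.0 mg/L) or both hormones, in 2 libraries per group. The second had 9-month-old plantlets kept for 2 or 4 weeks without 6-BA or with 0.5, with 1.0 or with 2.0 mg/L of it, in 1 library per dose and time. NAA is naphthaleneacetic acid, a synthetic auxin, and 6-BA is benzyladenine, a synthetic cytokinin. No genotype beyond the species was given, all plantlets were raised from seed on a sucrose medium with potato, and the labelled tissue was young leaves, stems and shoots together.

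AP2/ERF proteins bind DNA through the AP2 domain and are named after the Arabidopsis floral gene APETALA2 and the ethylene response factors. In Arabidopsis, ethylene stabilises EIN3-type proteins, which switch on ERF1, and ERF1 and its relatives then act on GCC-box genes of defence. The DREB branch acts on genes of dehydration and cold, while AP2-like proteins such as AINTEGUMENTA (ANT) and BABY BOOM (BBM) carry a pair of AP2 domains and regulate organ growth and embryo or meristem identity. Other known members are the cytokinin response factors (CRF), WIN1 of cuticle formation and ESR2 of shoot regeneration. The roles named here come from Arabidopsis unless another plant is stated, and were not measured in this orchid.

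Total counts per library, in units of 1e6, ran from 34.3 to 74.5 in the first experiment and from 15.1 to 16.3 in the second. The 20 photosynthetic marker genes (chlorophyll a-b binding proteins and the small Rubisco chain) summed to 27309 to 34448 CPM (counts scaled to a library of 1000000) in the first experiment and 14548 to 35874 CPM in the second. A list of 35 genes with root words in their description summed to 890 to 981 CPM in the first experiment and 716 to 1142 CPM in the second, and 72 floral genes outside the family summed to 323.5 to 460.8 CPM and 464 to 660 CPM. The tissue was thus rich in photosynthetic transcripts. The root and floral lists were filled by words in the description. The root list includes chitinase-like protein 1 (LOC110113555), at 163 to 224 CPM in the first experiment, and the floral list takes in MADS-box genes of any role. Their sums therefore do not show whether root or floral tissue was present. In such bulk samples, fewer cells of a type and less RNA per cell cannot be told apart.

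Members were put into name groups by name or, where the name held no group word, by protein match. This gave 60 ERF genes, 17 AP2-like, 13 RAP2, 10 DREB and 5 PTI (pathogenesis-related activators). CRF, WIN1, ESR, ABI4 and WRI1 had 1 each. The RAP2 group thus includes genes named ERF1-like, ERF9-like and ERN1. Levels between genes are given per length, as FPKM. The median member had a mean of 4.01 FPKM over the 8 libraries of the first experiment, 41 members reached 10 FPKM, 25 stayed under 1 FPKM and 2 were at 0 in all 8 libraries. In the second experiment 5 members were at 0 in all 8 libraries. The highest was LOC110092963, named ERF1-like but with its best protein match to RAP2-2, a regulator of the response to low oxygen. Its mean level was 262 FPKM in the first experiment and 231 FPKM in the second. RAP2-4 (LOC110112594), a regulator tied to light and drought, followed with 156 and 205 FPKM, and LOC110108187, a second gene whose best match is RAP2-2, had 148 and 95.5 FPKM. The APETALA2-like protein 2 gene (LOC110112545), from the family branch of floral organ identity and flowering time, was at 99.0 and 80.1 FPKM. ERF118 (LOC110095987) was the highest of both experiments together among genes of the ERF name group, at 59.0 and 77.2 FPKM.

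**Figure D1:**
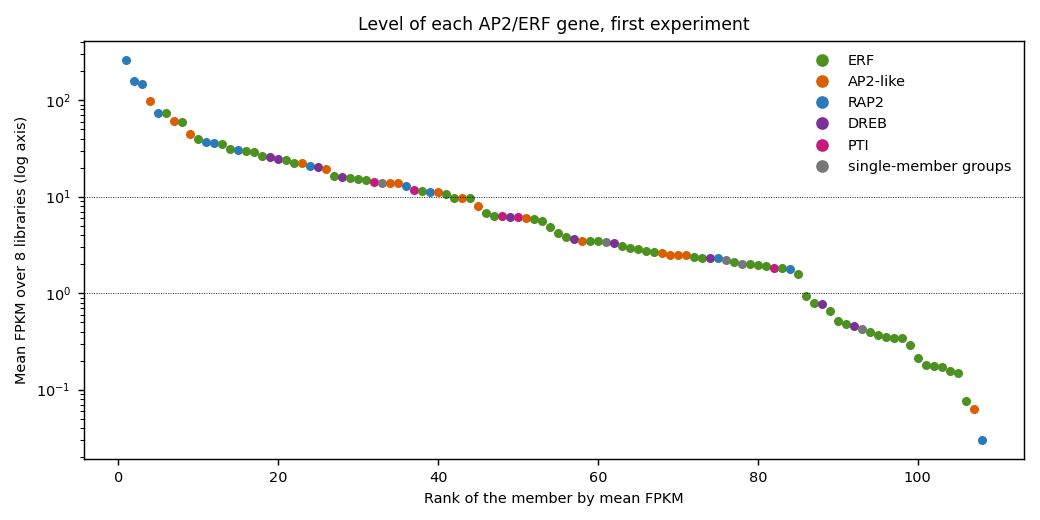
Each point is 1 of the 108 members above 0, ranked by its mean FPKM over the 8 libraries of the first experiment (log axis) and coloured by name group; dotted lines mark 1 and 10 FPKM. Genes grouped as RAP2 by name or protein match hold the top 3 ranks, and 41 members lie at or above 10 FPKM.

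Most members outside the AP2-like group also had a compact structure. In 69 of 110 members (62.7%) the gene length given in the deposited table equalled the span from start to end, so that no intron separated the parts, against 19.8% of the 22643 protein-coding genes. None of the 17 AP2-like genes had this form, while 69 of the 93 others did. The median member was 1057 bases long, and the median protein-coding gene 1454. The median was 1777 bases for the AP2-like genes and 964 for the other members. Within 50000 bases of each other lay 19 members in 9 clusters, among them ERF1B (LOC110104876) beside ERF096 (LOC110104880), and ERF2-like (LOC110093843) beside a pair of ERF5-like genes. RAP2-13-like (LOC110103007) overlapped a neighbouring gene, LOC114579545, and because strandedness is not given for the libraries, reads from the overlap cannot be assigned.

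The first question was which members respond to 6-BA whether or not NAA is present. In the 4 libraries with 6-BA, the members with the largest shifts were 5 genes that match RAP2-11 of Arabidopsis, all lower, while ANT, ERF1B and ESR2-like were higher. With NAA as a covariate, 36 of the 100 members tested changed, 13 upward and 23 downward, by edgeR's quasi-likelihood test at an adjusted p under 0.05. Over all 19303 genes tested, 13.4% were called, 5.92% higher and 7.46% lower. The median log2 fold change was -0.13 over members and 0.00 over all genes. Of the 110 members, 10 did not pass the filter on low counts. The 4 libraries with 6-BA and the 4 without did not overlap in CPM for 15 members that were higher (8.63% of all genes tested) and 20 that were lower (9.77%). By name group, 5 ERF genes rose and 12 fell of 52 tested, 3 AP2-like genes rose and 1 fell of 16, 2 RAP2 genes rose and 6 fell of 12, 2 of 10 DREB genes fell, and 1 PTI gene rose and 2 fell of 5. The RAP2 rises were of genes named ERF1-like, and the RAP2 falls included ERF9-like LOC110096240, ERN1 and ERN1-like, grouped by protein match. The single ESR and WIN1 genes rose, and CRF2, ABI4 and WRI1-like did not pass the test. The same call came out in every alternative for 20 of the 36 members. The other 16 lost it in at least 1, each without at least 1 library, and no fold change turned its sign.

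The genes matching RAP2-11, an Arabidopsis regulator of the response to low potassium, were set together after their values were seen, from the protein match given in the deposited table. The family holds 6, named variously ERF9-like, ERN1, ERN1-like, ERN2-like, ERF110-like and ERF021-like; ERN1 is known from Medicago truncatula, where it acts in root nodule formation. They lie on 6 different scaffolds, with genes of 750 to 1421 bases. ERF9-like (LOC110096240) had 17.8 and 19.9 CPM in the water libraries and 17.1 and 15.8 CPM with NAA. The same gene had 3.38 and 3.02 CPM with 6-BA and 2.68 and 2.27 CPM with both hormones. The 4 libraries with 6-BA were all far below the 4 without, and the gene fell by 2.64 in log2 units (SE 0.11, adjusted p 1.5e-06).

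ERN1-like (LOC110109222) had 6.34 and 6.26 CPM with water and 7.15 and 4.89 CPM with NAA, against 0.436 and 0.225 CPM with 6-BA and 0.723 and 0.569 CPM with both. Again no library with 6-BA reached any library without it, and the log2 fold change was -3.66 (SE 0.27, adjusted p 5.2e-05). ERN1 (LOC110096456) had 2.89 and 3.57 CPM with water, 2.66 and 1.70 CPM with NAA, 0.127 and 0.187 CPM with 6-BA and 0.342 and 0.293 CPM with both. Its groups were likewise apart, with a log2 fold change of -3.46 (SE 0.36, adjusted p 0.000301). ERF110-like (LOC110110883) was read in 43 and 49 counts in the water libraries and 28 and 23 counts with NAA; it had 0 counts in both 6-BA libraries, and 6 and 4 counts when both hormones were given. Against water it was at least 41.9-fold lower with 6-BA alone, taking a floor of 3 counts over the group, and the additive model gave adjusted p 0.002. ERF021-like (LOC110115597) had 16 and 32 counts in the water libraries and 17 and 12 counts with NAA, against 6 and 2 counts with 6-BA and 2 and 4 counts when both were given. It fell by 3.05 in log2 units (SE 0.50, adjusted p 0.00397), at counts low enough that counting error is large. The sixth, ERN2-like (LOC110095445), had at most 4 counts in any library of the first experiment and was not tested.

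All 5 tested genes of this set fell with 6-BA alone and with both hormones against water, and none of the 5 passed the test with NAA alone. These comparisons use the same libraries as the test above and are not separate support. The call of ERF021-like against water did not come out in every alternative, for 6-BA alone or for both hormones. The list of genes with root words had a median log2 fold change of -0.01. Of its 27 tested genes, 1 rose and 3 fell, where 13.4% of all genes were called. Its summed level lay at 912 to 981 CPM in the 4 libraries without 6-BA and 890 to 960 CPM in the 4 with it, so the list as a whole overlapped. The 2 with the lowest p both fell. SHORT-ROOT-like (LOC110095590), a regulator of root radial patterning, had 3.45 and 3.94 CPM with water, 3.89 and 2.98 CPM with NAA, 1.05 and 1.01 CPM with 6-BA and 0.749 and 0.931 CPM with both (log2 fold change -1.94, adjusted p 0.00016). A casparian strip membrane protein gene (LOC110102706), of the root endodermal barrier, fell by 1.75 in log2 units (adjusted p 0.00344). The part of root tissue in the fall of the RAP2-11-like genes was not tested.

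**Figure D2:**
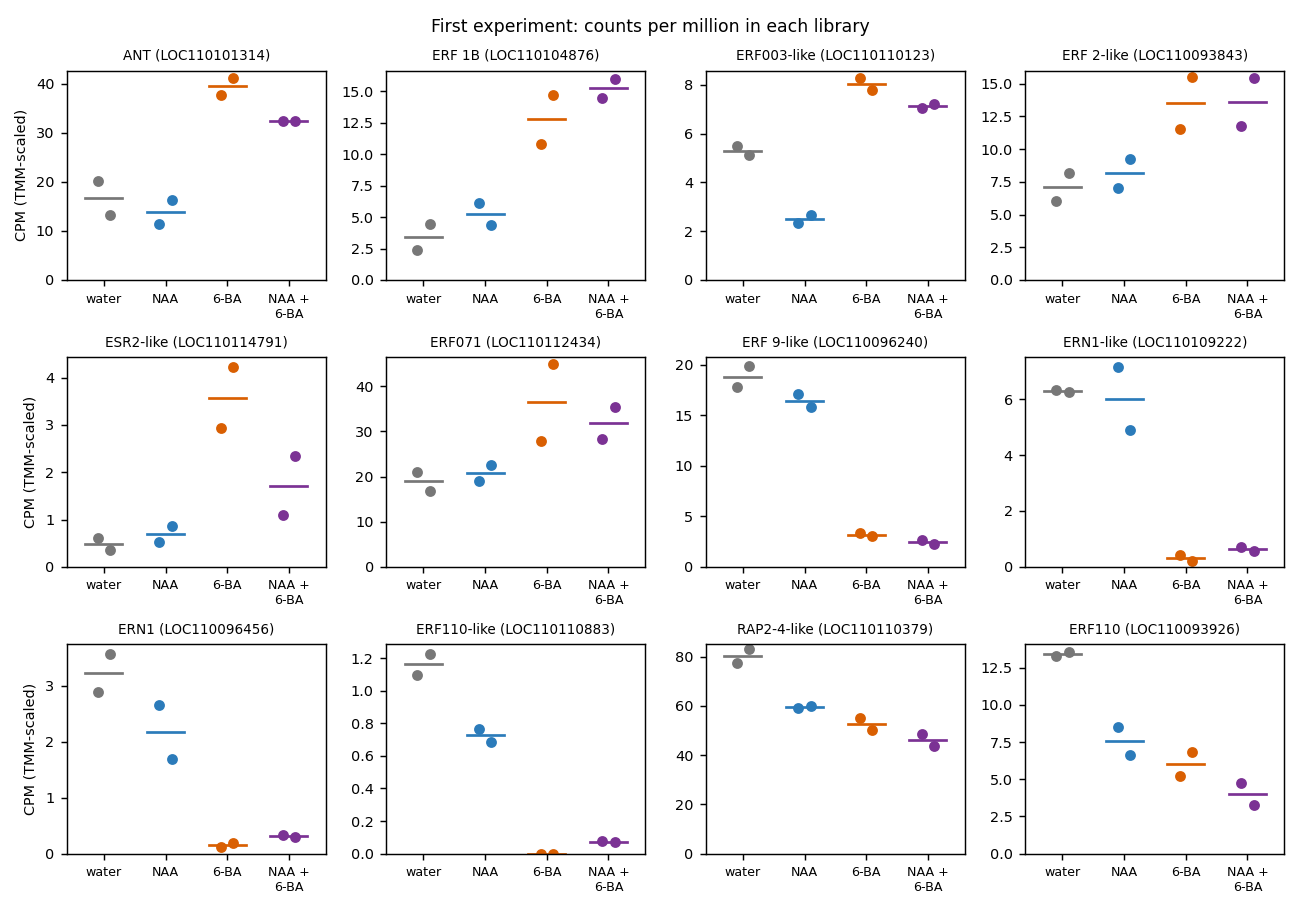
Points are the TMM-scaled CPM of each library in the first experiment, and lines the mean of the 2 libraries, for the 6 members with the lowest p in each direction in the comparison of libraries with and without 6-BA. ANT, for example, lies between 11.4 and 20.2 CPM without 6-BA and between 32.4 and 41.2 CPM with it.

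Among regulators of organ growth and shoot identity, ANT (LOC110101314), which prolongs cell proliferation in organ primordia, had 20.2 and 13.2 CPM with water, 11.4 and 16.4 CPM with NAA, 37.8 and 41.2 CPM with 6-BA, and 32.5 and 32.4 CPM with both. Every library with 6-BA was above every library without it, and the gene rose by a log2 fold change of 1.23 (SE 0.14, adjusted p 0.000586). ESR2-like (LOC110114791), whose Arabidopsis counterpart promotes shoot regeneration, was low throughout: 0.613 and 0.349 CPM with water, 0.52 and 0.864 CPM with NAA, 2.93 and 4.23 CPM with 6-BA, and 1.09 and 2.34 CPM with both. The groups did not overlap and the log2 fold change was 2.10 (SE 0.41, adjusted p 0.00995). A second ANT gene (LOC110107204) rose by 0.51 (adjusted p 0.0264), and AIL1 (LOC110094210), an ANT relative, by 0.42 (adjusted p 0.02). The APETALA2-like protein 2 gene fell by 0.28 (adjusted p 0.045). Both BBM2 genes, BBM1, AIL5 (LOC110111594) and TOE3 did not pass the test in this comparison; AIL5 had 44.7 and 35.7 CPM with water, 24.3 and 36.3 CPM with NAA, and 24.1 to 28.9 CPM in the 4 libraries with 6-BA.

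WIN1 (LOC110105686), which activates genes of cutin and wax synthesis, had 5.13 and 4.84 CPM with water, 4.82 and 5.13 CPM with NAA, 6.54 and 6.07 CPM with 6-BA, and 7.51 and 7.10 CPM with both. Its 4 libraries with 6-BA were above the others, with a log2 fold change of 0.45 (adjusted p 0.025). Of 38 wax and cutin genes tested, 10 rose and 4 fell, where 5.92% and 7.46% of all genes did. The gene with the lowest p among them, fatty acyl-CoA reductase 3 (LOC110114508), which makes wax alcohols, had 54.2 to 63.4 CPM without 6-BA and 25.0 to 28.6 CPM with it, and fell (log2 fold change -1.17, adjusted p 1.83e-05). GL1-1 (LOC110105062), an aldehyde decarbonylase of wax synthesis, rose by 0.45 (adjusted p 0.0023).

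Among ERF genes that rose, ERF1B (LOC110104876) had 2.38 and 4.47 CPM with water and 6.16 and 4.35 CPM with NAA. It had 10.8 and 14.7 CPM with 6-BA, and 14.5 and 15.98 CPM with both. The groups with 6-BA lay wholly above the others, and ERF1B rose by a log2 fold change of 1.71 (SE 0.20, adjusted p 0.000742). ERF2-like (LOC110093843), an activator of GCC-box genes, had 6.05 and 8.21 CPM with water, 7.065 and 9.21 CPM with NAA, 11.6 and 15.5 CPM with 6-BA, and 11.8 and 15.4 CPM with both. It rose by 0.83 (SE 0.16, adjusted p 0.00796), again with no overlap. A second ERF2-like gene (LOC110107770) rose by 0.47 (adjusted p 0.0417), and PTI5-like (LOC110109092), whose tomato counterpart binds the resistance kinase Pto, by 0.75 (adjusted p 0.0246). ERF071 (LOC110112434), whose best match is RAP2-3 of the low-oxygen group, had 21.1 and 16.7 CPM with water, 19.1 and 22.6 CPM with NAA, 27.9 and 45.0 CPM with 6-BA, and 28.4 and 35.4 CPM with both. The 6-BA libraries were all higher, though the 2 of the 6-BA group lay far apart (log2 fold change 0.78, SE 0.16, adjusted p 0.0118). The 2 abundant genes matching RAP2-2 rose slightly, LOC110092963 by 0.23 and LOC110108187 by 0.26 (adjusted p 0.0284 and 0.0298).

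The genes that make ethylene or pass on its signal were counted beside these factors. Of 13 tested genes of ethylene synthesis, 2 rose and 1 fell, where 5.92% of all genes rose and 7.46% fell. The median log2 fold change of these 13 was 0.05. ACC oxidase (LOC110105140), which forms ethylene, had 417 to 546 CPM in the libraries without 6-BA and 584 to 697 CPM in those with it (log2 fold change 0.47, adjusted p 0.0106), and an ACC synthase (LOC110104506) rose by 0.74 (adjusted p 0.0174). Of 24 genes of perception and signalling, 3 rose and 3 fell against the same shares, with a median log2 fold change of 0.09. Both EIN3-like 1a genes, the factors upstream of ERF1 in Arabidopsis, were among those that rose, LOC110113492 by 0.44 (adjusted p 0.000861) and LOC110107124 by 0.34 (adjusted p 0.00314). With 6-BA they stood at 195.0 to 217 CPM and 91.1 to 98.0 CPM, and without it at 140.0 to 155 CPM and 71.2 to 78.1 CPM. ETHYLENE-INSENSITIVE 2 (LOC110103298), of the same list, was lower with either hormone than with water. It had 86.6 and 100.2 CPM with water and 65.7 and 67.9 CPM with NAA. With 6-BA it had 63.8 and 65.0 CPM, and with both 59.2 and 53.1 CPM. It is named for its low p in the NAA comparison over media with and without 6-BA, where it did not pass the edgeR test (log2 fold change -0.34, adjusted p 0.26).

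Other genes of the ERF name group fell, as did DREB genes. Of 52 ERF genes tested, 5 rose and 12 fell, and the order of description here follows direction, not family branch. ERF6-like (LOC110106428), a regulator of leaf growth under water deficit, had 15.8 to 24.1 CPM without 6-BA and 7.27 to 12.2 CPM with it, and fell by 0.98 in log2 units (SE 0.17, adjusted p 0.00524). One ERF5-like gene (LOC110093822) had 34.1 to 53.9 CPM without 6-BA and 22.0 to 32.4 CPM with it, and fell by 0.68 (adjusted p 0.0125). DREB1C-like (LOC110112064), of the cold-response group, had 25.5 to 35.2 CPM without and 7.75 to 16.9 CPM with 6-BA. It fell by 1.05 (SE 0.18, adjusted p 0.00537). DREB2C-like (LOC110097366), of the drought and heat group, fell by 0.67 (adjusted p 0.0144), with 9.92 to 18.6 CPM without and 6.98 to 10.6 CPM with 6-BA, so that the groups overlapped. ERF053-like (LOC110108219) fell by 0.82 (adjusted p 0.00697), and ERF3 (LOC110108252), a repressor of GCC-box genes, by 0.34 (adjusted p 0.00438). The other 8 genes of the DREB name group did not pass the test. Name groups are not family branches, and genes of the DREB branch with other names, such as ERF039-like below, are counted in other groups. Among 60 genes of dehydration and cold response, 1 rose and 7 fell, where 5.92% of all genes rose and 7.46% fell. Both directions together made a share close to the 13.4% called over all genes. The median log2 fold change of the list was -0.11. Those with the lowest p were NDR1/HIN1-like protein 6 (LOC110096343; log2 fold change -0.89, adjusted p 0.00053), listed by its domain description, and the late embryogenesis abundant gene Lea14-A (LOC110115063; -0.69, adjusted p 0.00264).

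RAP2-4-like (LOC110110379), a relative of the light and drought regulator above, had 77.4 and 83.0 CPM with water, 59.3 and 59.9 CPM with NAA, 55.1 and 50.3 CPM with 6-BA, and 48.5 and 43.6 CPM with both. All 6 libraries with a hormone were below the water libraries, and those with 6-BA were below those with NAA alone (log2 fold change for 6-BA -0.49, SE 0.07, adjusted p 0.00203). ERF110 (LOC110093926) showed the same order, with 13.3 and 13.6 CPM with water, 8.49 and 6.62 CPM with NAA, 5.25 and 6.86 CPM with 6-BA, and 4.73 and 3.26 CPM with both. One 6-BA library lay within the range of the NAA libraries, and ERF110 fell by 1.03 (SE 0.15, adjusted p 0.00244). ERF003-like (LOC110110123) was lowest with NAA alone. It had 5.49 and 5.12 CPM with water, 2.33 and 2.65 CPM with NAA, 8.29 and 7.77 CPM with 6-BA, and 7.03 and 7.22 CPM with both, and rose with 6-BA by 1.04 (SE 0.18, adjusted p 0.00585). Among the 5 genes of the PTI name group, PTI6 LOC110107938, whose best match is CRF5, fell by 0.73 (adjusted p 0.0279) and PTI6-like LOC110114618 by 0.66 (adjusted p 0.00877). The other 2 genes named PTI6 did not pass the test, LOC110099586 with a log2 fold change of -0.07 and LOC110104943 with -0.13. CRF2 (LOC110109529), whose best match is CRF4, had 26.3 and 21.8 CPM with water and 13.6 to 20.7 CPM in the other 6 libraries, and did not pass the test (log2 fold change -0.19).

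The remaining calls with 6-BA were falls of RAP2-4 (by 0.34), RAP2-9-like (by 0.31), ERF008-like (by 0.52), ERF013 (by 1.20), ERF026-like (by 0.79), ERF027-like (by 1.04) and ERF109 (by 1.35). These and the weaker rises and falls above were not called in every alternative. Leaving out a library also leaves less information on the spread, so a lost call need not mean a changed effect. Leaving out 1 library at a time ended between 6 calls (without NAA replicate 1, adjusted p 0.0517 to 0.102) and 11 calls (without water replicate 1, 0.0556 to 0.121, and without NAA + 6-BA replicate 1, 0.0553 to 0.143). Without NAA replicate 2 it ended 7 calls (0.0595 to 0.113), and without NAA + 6-BA replicate 2 it ended 9 (0.0506 to 0.0851). Without water replicate 2, 6-BA replicate 1 or 6-BA replicate 2 it ended 10 each (0.0506 to 0.144, 0.0536 to 0.141 and 0.0683 to 0.126). The genes concerned were these 7, the second ANT gene, AIL1, the APETALA2-like protein 2 gene, WIN1, the second ERF2-like gene, PTI5-like, PTI6 (LOC110107938) and the 2 RAP2-2 matches.

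Against water alone, 6-BA changed 30 of 101 members tested, 10 upward and 20 downward (of all 19420 genes tested, 7.31% were called, 3.11% higher and 4.2% lower). Those with the lowest p repeated the genes above, with log2 fold changes of 1.90 for ERF1B (adjusted p 0.00426), 1.24 for ANT (adjusted p 0.00581), 2.89 for ESR2-like (adjusted p 0.00641), 0.75 for ERF2-like LOC110107770 (adjusted p 0.0102) and 1.09 for PTI5-like (adjusted p 0.0121). DREB3 (LOC110100999), the highest member of its name group, had 25.1 and 29.4 CPM with water and 37.6 and 40.5 CPM with 6-BA, a log2 fold change of 0.52 (adjusted p 0.0156). The falls with the lowest p were those of 4 RAP2-11 matches, of PTI6 (LOC110107938) from 13.7 and 13.8 to 5.80 and 6.20 CPM (log2 fold change -1.20, adjusted p 0.00159), and of RAP2-4-like (-0.61, adjusted p 0.00366). AIL5 fell in this comparison (log2 fold change -0.73, adjusted p 0.0355). Of the 30 calls 7 came out in every alternative, those of ERF9-like, ERN1, ERN1-like, ERF110-like, PTI6 (LOC110107938), ANT and ERF1B. Leaving out 1 library ended 19 calls without water replicate 1 (adjusted p 0.0586 to 0.268), 18 without water replicate 2 (0.06 to 0.239), 11 without 6-BA replicate 1 (0.0519 to 0.234) and 21 without 6-BA replicate 2 (0.0521 to 0.329). It ended 7 calls without either library of the group with both hormones (0.0515 to 0.0752 without replicate 1 and 0.0515 to 0.0743 without replicate 2).

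NAA alone changed fewer members: 4 rose and 5 fell of 101 tested, where 2.23% of all genes were called, 1.41% higher and 0.824% lower. DESeq2 called 16 members, against 4.02% of all genes. ERF039-like (LOC110114282), whose best match is ERF034 of the DREB branch, had 3.68 and 4.84 CPM with water, 16.5 and 19.3 CPM with NAA, 9.01 and 6.72 CPM with 6-BA, and 7.23 and 11.5 CPM with both. The NAA libraries were the highest of all and the water libraries the lowest, and the gene rose by a log2 fold change of 2.07 with NAA (SE 0.25, adjusted p 0.00344). ERF098 (LOC110092532), whose best match is ERF109, a regulator of jasmonate and reactive oxygen responses, was read in 7 and 17 counts in the water libraries and 89 and 98 counts with NAA, against 18 and 37 counts with 6-BA and 20 and 55 counts when both were given. Only the NAA libraries stood well above the rest, with a log2 fold change of 3.14 (SE 0.66, adjusted p 0.0435). DREB3 rose by 0.59 (adjusted p 0.02) and ERF053-like LOC110106077 by 0.83 (adjusted p 0.0396).

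The 5 that fell with NAA were ERF003-like (by 1.09, adjusted p 0.0105), RAP2-4 (by 0.58, adjusted p 0.00748), RAP2-13-like (by 0.49, adjusted p 0.0156), an ERF9-like gene whose best match is ERF4 (LOC110109181; by 0.56, adjusted p 0.0379) and RAP2-4-like (by 0.43, adjusted p 0.041). RAP2-4 had 349 and 346 CPM with water and 209 to 253 CPM in all 6 libraries with a hormone. The call of ERF039-like came out in every alternative, and the other 8 members lost theirs in at least 1. Leaving out a library also leaves less information on the spread, so a lost call need not mean a changed effect. RAP2-4 kept a log2 fold change of -0.61 to -0.56 in every alternative, also where it lost the call. Without water replicate 1 all 8 lost it (adjusted p 0.0657 to 0.304), without water replicate 2 it was 6 (0.0508 to 0.237), without NAA replicate 1 it was 7 (0.0688 to 0.224) and without NAA replicate 2 it was 4 (0.0521 to 0.107). Without 6-BA replicate 1 or 2 the calls of RAP2-4-like, ERF9-like and ERF053-like were lost (0.0673 to 0.0689 and 0.0665 to 0.0675), and without either library of both hormones that of ERF053-like (0.0658 and 0.0651). When NAA was tested over media with and without 6-BA, edgeR called 0 of 100 members and 0% of all genes, with 17 members at an unadjusted p under 0.05 (9.88% of all genes). DESeq2 called 5 members in that comparison, against 1.1% of all genes: RAP2-4 (log2 fold change -0.38), RAP2-4-like (-0.31), ERF118 (-0.23) and ERF110 (-0.71) were lower and ERF026-like (1.00) higher.

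With both hormones against water, 6 members rose and 13 fell of 101 tested (of all genes, 7.08% were called, 3.01% higher and 4.06% lower); DESeq2 called 34 members, against 9.88% of all genes. The rises were ERF1B (log2 fold change 2.15, adjusted p 0.00223), ERF039-like (1.13, adjusted p 0.0259), ANT (0.96, adjusted p 0.0204), ERF2-like LOC110093843 (0.93, adjusted p 0.0349), DREB3 (0.58, adjusted p 0.00988) and the RAP2-2 match LOC110092963 (0.34, adjusted p 0.0322). The falls with the lowest p were those of ERF9-like LOC110096240 (-2.92), ERN1-like (-3.27), ERN1 (-3.33), RAP2-4-like (-0.80), RAP2-4 (-0.72) and ERF110 (-1.74), with adjusted p from 2.14e-05 to 0.00174. The calls that came out in every alternative numbered 8, and those of the rises other than ERF1B did not. Without water replicate 1 or 2, 7 calls were lost each time (adjusted p 0.0702 to 0.2 and 0.0595 to 0.161). Without replicate 1 or 2 of the group with both hormones, 8 and 10 were lost (0.0531 to 0.153 and 0.0501 to 0.192), and without 6-BA replicate 1 or 2 that of LOC110092963 (0.0627 and 0.0632). These 3 comparisons share the water libraries.

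Whether the 6-BA effect differed with and without NAA was tested as an interaction. edgeR called 0 of 101 members (0.52% of all genes), 32 members had an unadjusted p under 0.05 (8.14% of all genes), and DESeq2 called 6, against 2.03% of all genes. Those 6 were ERF039-like (-1.83), DREB1G (LOC110103508, -2.37), PTI6 (LOC110107938, 0.93), ERF4-like (LOC110096335, 0.97), RAP2-13-like (0.59) and ERF9-like (LOC110109181, 0.64), as log2 differences of the 6-BA effect with NAA from that without. DREB1G had 1.15 and 2.25 CPM with water, 3.23 and 4.35 CPM with NAA, 4.49 and 2.70 CPM with 6-BA, and 1.18 and 1.93 CPM with both. Either hormone alone thus gave the higher libraries, and the libraries with both overlapped those with water. Without NAA replicate 2, and without replicate 2 of the group with both hormones, edgeR called 2 members each.

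In the second experiment each dose and time was 1 library, and its libraries stood apart in a way that did not follow the dose. The 13 mitotic cyclin and CDKB genes, drivers of cell division listed after the data were seen, summed to 373, 518, 198 and 141 CPM after 2 weeks, in order of rising 6-BA dose, and to 682, 165, 222 and 608 CPM after 4 weeks. In the first experiment the same sum stayed between 332 and 394 CPM in all 8 libraries. Some AP2/ERF genes of growing organs were high and low in the same libraries and others were not. ANT LOC110107204 had 12.7, 21.1, 0.453 and 0.374 CPM after 2 weeks, and 41.9, 0.123, 2.19 and 37.8 CPM after 4 weeks, in the same order of doses. It had the lowest mean log2 ratio over the 6 dose comparisons among members tested, yet the library with 2.0 mg/L was as low as any after 2 weeks and close to the untreated one after 4 weeks.

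The other ANT gene (LOC110101314) gave 20.0, 11.6, 3.10 and 1.498 CPM after 2 weeks and 28.6, 1.60, 0.928 and 38.5 CPM after 4 weeks. CRF2, a cytokinin response factor by name, had 7.79, 13.3, 1.36 and 0.936 CPM after 2 weeks and 18.0, 0.677, 1.13 and 15.3 CPM after 4 weeks. BBM2 (LOC110103792), of the embryo and meristem group, was at 1.53, 5.44, 0 and 0.0624 CPM and then at 9.45, 0, 0 and 10.5 CPM. The same 4 libraries were thus the low ones for these 3 genes: those of 2 weeks at 1.0 or at 2.0 mg/L, and those of 4 weeks at 0.5 or at 1.0 mg/L. TOE3 (LOC110097153), a repressor of flowering, had 4.66, 5.44, 1.62 and 0.874 CPM after 2 weeks and 18.0, 2.03, 5.83 and 14.0 CPM after 4 weeks. WIN1 had 5.685, 6.55, 2.91 and 1.31 CPM after 2 weeks and 12.3, 1.60, 2.19 and 16.2 CPM after 4 weeks. BBM2, TOE3 and WIN1 were chosen for this description after their values were seen, as were the following. Other genes of the same names varied far less: BBM2 LOC110110526 lay between 12.4 and 26.1 CPM over the 8 libraries, AIL1 LOC110096264 between 18.0 and 28.8 CPM, and TOE3 LOC110095317 between 78.9 and 106 CPM. With 1 library per condition, dose cannot be told apart from the share of dividing tissue in a library, and its part in these values was not tested.

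**Figure D3:**
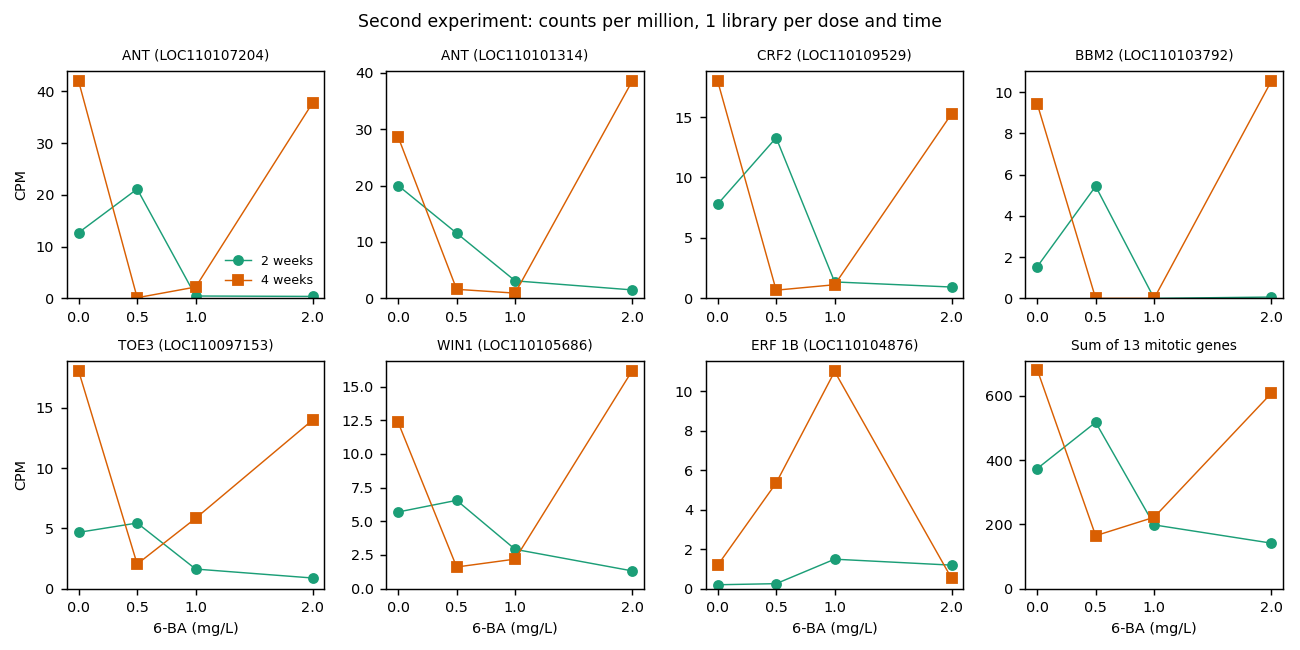
Each point is the CPM of 1 library of the second experiment by 6-BA dose, after 2 weeks (circles) or 4 weeks (squares), for 7 members and for the summed level of 13 mitotic cyclin and CDKB genes. ANT, CRF2, BBM2 and WIN1 are low at the higher 2 doses after 2 weeks and at 0.5 and 1.0 mg/L after 4 weeks, as the mitotic sum is, while ERF1B is highest at 11.0 CPM after 4 weeks at 1.0 mg/L.

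ERF1B had the highest mean log2 ratio over doses, with 0.192, 0.247, 1.49 and 1.19 CPM after 2 weeks and 1.18, 5.35, 11.0 and 0.513 CPM after 4 weeks. It was higher than at 0 mg/L in 5 of the 6 treated libraries and lower in that with 2.0 mg/L after 4 weeks. After 2 weeks it had only 3 counts in the untreated library and 4 at 0.5 mg/L, so the ratios of that week rest on few reads. PTI5-like was likewise highest at 0.5 and 1.0 mg/L after 4 weeks, with 3.48, 14.2, 15.4 and 1.03 CPM, against 1.73, 2.29, 1.94 and 0.936 CPM after 2 weeks. DREB1G was at 0 in both untreated libraries and in that with 2.0 mg/L after 4 weeks, and reached 1.62 CPM at 1.0 mg/L after 2 weeks. ERF039-like had 1.34, 3.77, 2.199 and 3.06 CPM after 2 weeks and 1.71, 3.81, 4.24 and 2.31 CPM after 4 weeks, and so was above its untreated library in all 6 treated ones. Members that fell with 6-BA in the first experiment went either way here. RAP2-4-like (LOC110110379) had log2 ratios to 0 mg/L of 0.10, 0.24 and 0.25 after 2 weeks, in order of dose. After 4 weeks they were 1.78, 1.70 and 0.83. ERF5-like (LOC110093822) was likewise above its untreated library in all 6, while ERF053-like (LOC110108219) was below it in all 6. These 3 were chosen after their values were seen. Of the RAP2-11 matches, only ERF9-like (LOC110096240) passed the low-count filter here. It had 3.96, 5.56, 0.323 and 0.437 CPM after 2 weeks and 0.262, 1.29, 0.464 and 0.321 CPM after 4 weeks, and so was low in the untreated library at 4 weeks as well.

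Past a 2-fold change against 0 mg/L of the same week lay the following members of 81 that passed the filter. At 2 weeks, 10 were higher and 3 lower at 0.5 mg/L (4.69% and 3.23% of all genes), 6 and 14 at 1.0 mg/L (2.49% and 12.1%), and 4 and 28 at 2.0 mg/L (1.67% and 13.9%). At 4 weeks, 13 were higher and 21 lower at 0.5 mg/L (9.75% and 22%), 15 and 17 at 1.0 mg/L (10.6% and 19.3%), and 1 and 4 at 2.0 mg/L (3.67% and 3.97%). With a pseudocount of 1 CPM in place of 0.5, the 32 members past the fold at 2.0 mg/L after 2 weeks became 17, and the 5 after 4 weeks became 3. The share of all genes was not counted at 1 CPM, and the shares above hold for 0.5 only. These counts describe single libraries and carry no test. The additive models over the 8 libraries called no member: edgeR and DESeq2 each called 0 for any dose, for the dose slope and for 4 against 2 weeks (0% of all genes in edgeR and 0.0164%, 0.0121% and 0.416% in DESeq2). At an unadjusted p under 0.05, edgeR had 4, 0 and 4 of 81 members, where 2.34%, 2.02% and 5.25% of all genes were as low. The biological coefficient of variation was 0.499 in this model, which includes its misfit, against 0.115 in the first experiment.

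ABI4 (LOC110115745), a regulator of abscisic acid signalling, was at 0 in all 8 libraries of the second experiment and at 0.119 to 1.01 CPM in the first. WRI1-like (LOC110098242), a regulator of oil synthesis, lay between 2.99 and 4.47 CPM in the first experiment and between 0.499 and 4.45 CPM in the second.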

How the data were processed

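Poly(A)-selected RNA was sequenced from 16 libraries, per the labels' protocols. The authors deposited raw counts and FPKM per gene; HISAT2 2.0.6, Cufflinks 2.2.2 and edgeR are named in the submitters' processing notes, and the genome build, annotation release and strandedness were not given in the sources used here. FPKM of the first experiment fit the library totals, those of the second another effective size. Gene names, protein matches and positions came from the deposited tables, and all 110 members were found in a RefSeq gene table (ASM160598v2), used for names only. No sequence is printed.

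Counts were tested with edgeR 4.0.16 in R 4.3.3 (filterByExpr, TMM scaling, quasi-likelihood test, Benjamini-Hochberg adjustment over all genes at 0.05). The first experiment had a 4-group model (19420 genes) and an additive model (19303 genes), the second additive models (21267 genes) and single-dose log2 ratios of CPM + 0.5. CPM used TMM-scaled libraries in the first experiment and library totals in the second. With 2 libraries per group, p-values rest on a spread shared over groups; replicates differed beyond counting noise. Members named in each comparison are all those past the threshold or, above 12, the 6 with the lowest p in each direction; also the highest of each name group and the 3 largest mean rises and falls over single doses. Members and lists were chosen with earlier results of these data known. The test was checked on simulated counts. DESeq2 1.42.0, other scalings and filters, a replicate block and leaving out each library were the alternatives. Tables and plots used Python 3.11.15 with pandas 2.3.3, NumPy 2.4.6 and Matplotlib 3.10.9.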

Additional observations from a re-analysis of the deposited data

How the results depend on the processing

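Across all alternatives no fold change of a named member turned its sign. DESeq2 called 16 members for NAA against water and 34 for both hormones against water, where edgeR called 9 and 19; it called 6 in the interaction and 5 for NAA over 6-BA, where edgeR called 0. Without a filter on low counts, 1 member passed in the interaction (ERF039-like). Leaving out 1 library at a time gave 9 to 33 members for 6-BA against water, 1 to 10 for NAA against water, 10 to 26 for both, 0 to 2 for the interaction, 25 to 34 for 6-BA over NAA, and 0 for NAA over 6-BA and the second experiment. Where this left 1 library in a group, that library was assumed to vary like the others. Calls over all genes were not counted for these fits, so the ranges have no share to be set against. With a pseudocount of 1 CPM, 17 members lay past the fold at 2.0 mg/L after 2 weeks, in place of 32, and 3 after 4 weeks, in place of 5. The share of all genes was not counted at that pseudocount. Replicate numbers did not pair the libraries (correlations of deviations from -0.15 to 0.21). With the replicate number as a block, 22, 7 and 18 members were called against water for 6-BA, NAA and both. For 6-BA over NAA it was 29, and 0 in the interaction and for NAA over 6-BA. Calls over all genes went down as well. In the first 4 of these comparisons the block gave 1170, 351, 1123 and 2008 genes, and the main models 1420, 434, 1374 and 2582. Scaling by library size alone moved the median log2 change of all genes in the second experiment to -0.12 for any dose and 0.18 for 4 against 2 weeks. In the second experiment 5 of the 6 RAP2-11 matches did not pass the filter on low counts; ERN1-like had at most 15 counts there and ERN1 at most 6.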
